A study of Mus musculus with 90 samples.

Results

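Hepcidin and the genes of liver iron handling were followed as 10 genes, of 24475 in the count tables, through 9 groups of mouse liver libraries. They were chosen by name: the hepcidin genes Hamp and Hamp2, the iron sensor genes Hfe and Tfr2, the signalling target Id1, the uptake genes Tfrc and Slc39a14, and Trf, Fth1 and Slc40a1 for iron transport, storage and export. All 10 were in both tables, 1 for each experiment, and all passed the filter on low counts.

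Hepcidin is a peptide hormone made by hepatocytes that binds the iron exporter ferroportin, the product of Slc40a1, and has it degraded, so that less iron leaves gut cells, macrophages and hepatocytes. Its gene, Hamp, is switched on by bone morphogenetic proteins (BMPs) through SMAD proteins when iron is plentiful, with HFE and transferrin receptor 2 as sensors, and by interleukin 6 through STAT3 in inflammation. Hamp2 is a mouse paralog beside Hamp, for whose peptide no role in iron balance is established.

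The study lowered or raised signalling downstream of the glucagon receptor, which acts in hepatocytes through the stimulatory G protein, cAMP and protein kinase A (PKA). In experiment 1, mice were given AAV8, a virus that reaches the liver, with a short hairpin RNA, and the groups were Control and knockdown (KD) of Gcgr, of Gnas, of PKA and of Epac2. In experiment 2, Control AAV or Prkar1a KD, which takes away a subunit that restrains PKA, was combined with Control mAb or Gcgr mAb, an antibody against the receptor, to give 4 groups. Each group had 10 libraries of polyA RNA from whole liver. The sources used here do not give strain, sex, age, diet, iron status or the time after injection, and the labels name no PKA subunit. Samples carry numbers, but nothing states that these were different mice, so the p-values cover the spread among samples, part of which may be technical. In whole liver, fewer cells of a type and less RNA per cell cannot be told apart.

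Total counts lay between 20.8 and 33.7 M per library in experiment 1 and between 8.87 and 19.5 M in experiment 2. Levels are given as CPM, a gene's count relative to its library's total after TMM scaling between libraries. The targeted transcripts followed the labels: every library of a knockdown group lay below every control library of its experiment, for Gcgr (at most 54.1 CPM against at least 146 CPM), Gnas (94.2 against 339), Prkaca (23.4 against 85.6), Prkacb (13.8 against 34.7), Rapgef4, the gene of Epac2 (14.5 against 68.7), and Prkar1a (41.4 against 97.8). Targeted genes were also called in groups aimed at another gene. With Prkar1a KD and Control mAb, Gcgr (log2 change -0.39) and Gnas (-0.35) were lower, and Prkacb (0.24) and Rapgef4 (0.90) higher. With Gcgr mAb alone Rapgef4 was higher (0.56) and Prkaca lower (-0.25). PKA KD lowered Gcgr (-0.26) and Prkar1a (-0.28), and Gcgr KD lowered Prkar1a (-0.18). Liver identity held throughout, with 8 hepatocyte markers such as Alb summing to at least 28828 CPM in every library. That sum was lower after Prkar1a KD, with a median of 37429 CPM against 80888 CPM in the controls of experiment 2. Of the 8 markers 4 rose and 4 fell, where 56.2% of all tested genes were called. The erythroid marker sum also fell there, from a median of 815 CPM to 161 CPM, so blood cell RNA moved with Prkar1a KD, and its part in the results on iron genes was not tested. In experiment 2 the libraries Control AAV + Control mAb 10, Control AAV + Gcgr mAb 2 and Prkar1a KD + Gcgr mAb 2 stood apart from their groups, as did PKA KD 3 and 5 in experiment 1.

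The hepcidin genes lie close together on the minus strand of chromosome 7, Hamp (Entrez gene 84506) at 30942368 to 30944029 and Hamp2 (Entrez gene 66438) at 30922372 to 30924181 in GRCm38.p6. The 250 bases before each start, from RefSeq on that build, are shown because the genes moved apart in some groups although these stretches are alike. They aligned with 227 identical bases of 247. Capitals mark the BMP response element GGCGCC and the STAT site TTCNNNGAA, searched on both strands; the stretches are chr7:30944030-30944279 for Hamp and chr7:30924182-30924431 for Hamp2, each printed on the minus strand.
Hamp: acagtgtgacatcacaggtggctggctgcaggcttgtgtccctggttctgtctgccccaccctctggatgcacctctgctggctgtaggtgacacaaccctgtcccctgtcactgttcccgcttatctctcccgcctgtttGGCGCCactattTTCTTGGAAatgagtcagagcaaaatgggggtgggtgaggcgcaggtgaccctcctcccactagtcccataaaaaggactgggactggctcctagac
Hamp2: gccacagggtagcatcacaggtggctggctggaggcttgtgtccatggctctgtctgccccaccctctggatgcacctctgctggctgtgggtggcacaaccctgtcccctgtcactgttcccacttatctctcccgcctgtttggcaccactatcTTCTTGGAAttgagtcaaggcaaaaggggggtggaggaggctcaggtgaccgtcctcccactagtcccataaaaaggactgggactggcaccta
The STAT site letters stood in both genes, at -97 to -89 in Hamp and at -94 to -86 in Hamp2. GGCGCC stood at -109 to -104 in Hamp and had no match in this window of Hamp2. Of 32851 mouse promoter windows of the same length, 9.59% held GGCGCC and 7.02% held the STAT letters. Neither gene's window held TGACG, the core of the cAMP response element (17.8% of windows), nor the E-box CACGTG (6.02%). The transcripts themselves were 94.6% identical over 410 aligned bases. Counts of both genes had fractional parts in all 50 and all 40 libraries, so some reads had been divided before deposit, and between which genes is not recorded. Reads shared by Hamp and Hamp2 make both uncertain, and a fit with both summed was run beside the separate ones.

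Between genes, levels were compared per kilobase of exon, as mean CPM per kb ± SD (n = 10). The length was that of all annotated exons of a gene merged, 3469 bases for Fth1 and 410 for Hamp. It can exceed the length of the transcript that is made, which lowers the value. In the Control group of experiment 1, Trf stood highest at 4479 ± 315, followed by Fth1 at 431 ± 71.8 and Hamp at 427 ± 211. The closeness of that pair depends on these lengths, since before division Fth1 was at 1497 ± 249 CPM and Hamp at 175 ± 86.6 CPM. Tfr2 was at 67.2 ± 10.1 and Hamp2 at 46.0 ± 31.1. The lowest were Slc40a1 at 5.54 ± 0.616, Id1 at 3.21 ± 1.04 and Tfrc at 1.45 ± 0.425, so the transcripts of the plasma carrier and of ferritin far outnumbered those of the exporter and of transferrin receptor 1.

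With Prkar1a KD, the hormone gene rose to a level that no control library reached. Hamp spanned 122 to 454 CPM (median 194) in Control AAV + Control mAb and 655 to 983 CPM (median 834) in Prkar1a KD + Control mAb. The groups did not overlap, and the highest control value came from the library that stood apart. The log2 fold change was 1.94 ± 0.24 (SE, adjusted p = 1.16e-08, edgeR), and 2.13 ± 0.22 without the libraries that stood apart. Prkar1a KD called 56.2% of all tested genes, and 5 of the 10 iron genes were called, 3 higher and 2 lower, a share close to that background. Their median log2 change was 0.01, against 0.02 over all tested genes.

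**Figure D1:**
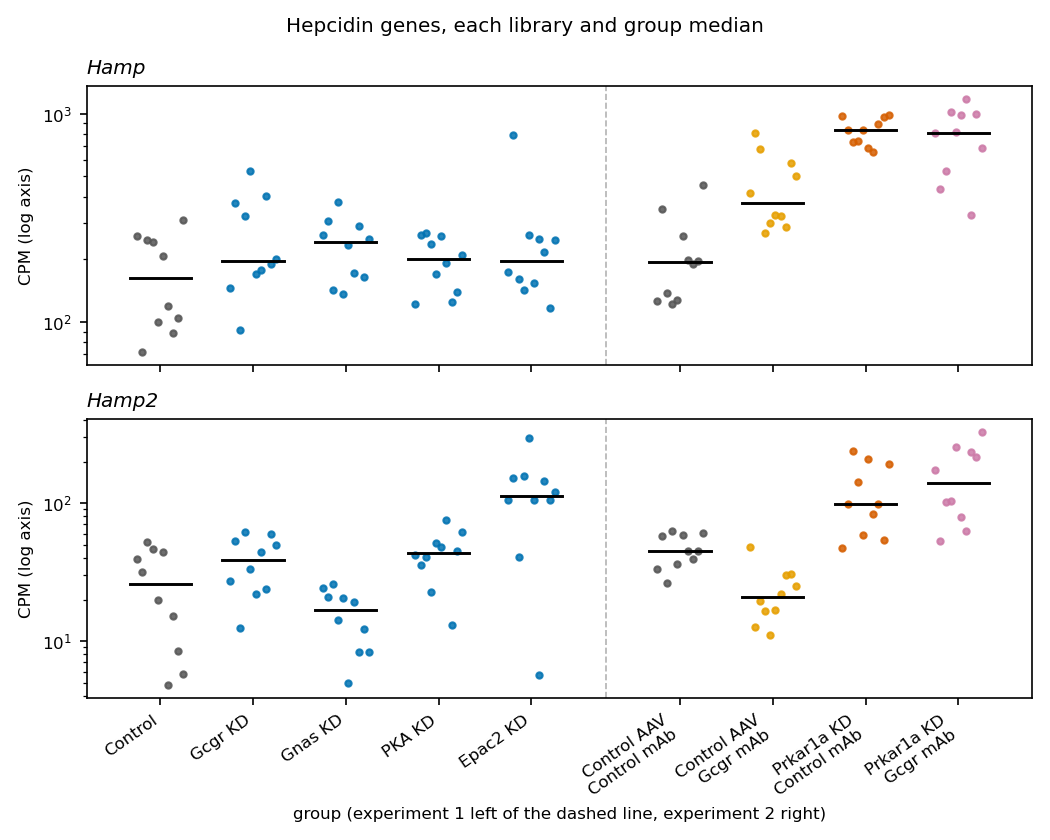
CPM (log axis) of Hamp and Hamp2 in each of 90 libraries, by group, with a line at the group median. Every Prkar1a KD + Control mAb library of Hamp lies at 655 CPM or more, and the medians of Hamp2 run from 16.7 CPM with Gnas KD to 139 CPM with Prkar1a KD + Gcgr mAb.

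Gcgr mAb given with Control AAV also raised Hamp, to a smaller extent. Its libraries spanned 268 to 805 CPM (median 373), overlapping the controls, and 10 of 10 lay above the control median. The change was 1.05 ± 0.24 (adjusted p = 0.00315, edgeR), and 1.11 ± 0.21 (adjusted p = 0.000647) without the libraries that stood apart. Of the 10 genes, 4 were called in this comparison, 1 higher and 3 lower, where 8.19% of all tested genes were called. Their median log2 change was -0.05, against 0.01 over all tested genes. Receptor blockade and the loss of a PKA inhibitor, set against the same control libraries, thus gave values of one sign for Hamp.

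When both were combined, Hamp spanned 326 to 1181 CPM (median 812), with a change of 1.85 ± 0.24 from the shared controls (adjusted p = 4.29e-08, edgeR). Against those controls 6 of the 10 genes were called, where 50.2% of all genes were. The groups overlapped, since replicates 8 and 2, at 326 and 434 CPM, lay under the highest control library. Prkar1a KD under Gcgr mAb gave 0.79 ± 0.24 (adjusted p = 0.00458), with 7 of the 10 genes called where 53.1% of all genes were. Gcgr mAb on top of Prkar1a KD gave -0.09 ± 0.23 (95% interval -0.57 to 0.38, adjusted p = 0.972). That interval lies below the 1.05 seen without Prkar1a KD. No gene of 12847 was called in that comparison (0% called) by edgeR, with 846 at an unadjusted p under 0.05 and 0 called by DESeq2. Of the 10 iron genes 0 were called by edgeR or DESeq2, and their lowest unadjusted p was 0.147. The interaction of both treatments on Hamp was -1.14 ± 0.33 (adjusted p = 0.0406, edgeR), in a comparison where 4.08% of all genes and 2 of the 10 were called. That call was lost in 19 of 40 fits that each left out 1 library, with values between -1.33 and -1.01 and adjusted p between 0.0103 and 0.0692, and with Hamp and Hamp2 summed it was -0.86 ± 0.29 (adjusted p = 0.0835).

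Hamp2 moved with Hamp after Prkar1a KD and the other way after Gcgr mAb. It spanned 26.5 to 63.2 CPM (median 45.1) in the controls, 11.0 to 47.9 CPM (median 20.7) with Gcgr mAb, 47.4 to 239 CPM (median 98.0) with Prkar1a KD and 53.5 to 328 CPM (median 139) with both. The groups with Gcgr mAb alone and with both did not overlap. With Prkar1a KD the change was 1.39 ± 0.32 (adjusted p = 0.000367), and under Gcgr mAb it was 2.79 ± 0.34 (adjusted p = 8.59e-09, edgeR). With Gcgr mAb alone Hamp2 fell by 1.01 (SE 0.32, adjusted p = 0.0463). This last call was lost in 18 of 40 fits that each left out 1 library (adjusted p from 0.0202 to 0.086), without the libraries that stood apart (-0.89, adjusted p = 0.0995), and with the replicate number as a block (adjusted p = 0.0555). The median share of Hamp2 in the summed counts of both genes was 18.6% in the controls, 4.93% with Gcgr mAb, 10.9% with Prkar1a KD and 17.0% with both.

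**Figure D2:**
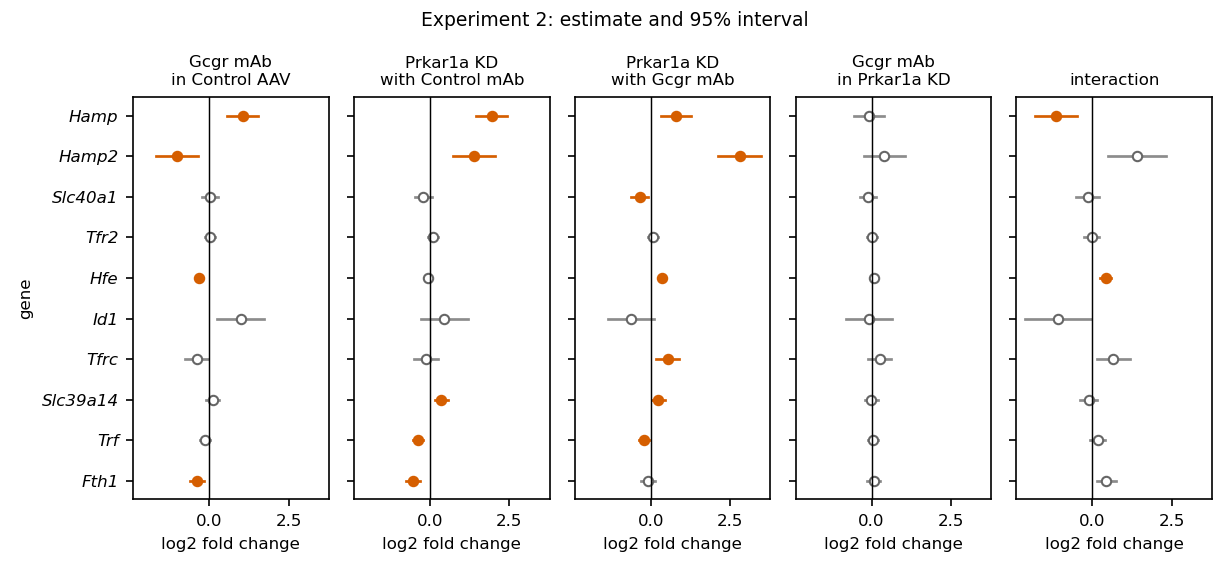
Log2 fold changes of the 10 genes (points) with 95% intervals (bars) in 4 comparisons of experiment 2 and their interaction, filled where the adjusted p was under 0.05. The points farthest from 0 in the figure are Hamp2 with Prkar1a KD under Gcgr mAb, at 2.79, and Hamp with Prkar1a KD, at 1.94. With Gcgr mAb in Prkar1a KD, Hamp lies at -0.09.

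In experiment 1, where signalling was only lowered, no knockdown moved Hamp past the threshold. It spanned 71.8 to 308 CPM (median 163) in Control, 92.1 to 533 CPM (median 196) with Gcgr KD and 136 to 378 CPM (median 243) with Gnas KD. With PKA KD it spanned 122 to 267 CPM (median 201), and with Epac2 KD 117 to 788 CPM (median 196). All 5 groups overlapped. The 4 changes from Control were 0.58 ± 0.30 with Gcgr KD (adjusted p = 0.265), 0.42 ± 0.30 with Gnas KD (adjusted p = 0.383), 0.18 ± 0.30 with PKA KD (adjusted p = 0.701) and 0.52 ± 0.30 with Epac2 KD (adjusted p = 0.403), all from edgeR and all against the same Control libraries. Without Epac2 KD replicate 2, the library at 788 CPM, the value with Epac2 KD was 0.13 (adjusted p = 0.884). The 95% intervals with Gcgr KD, -0.03 to 1.19, and with Epac2 KD, -0.09 to 1.13, include the 1.05 of Gcgr mAb in experiment 2. Those with Gnas KD, -0.19 to 1.03, and with PKA KD, -0.43 to 0.79, lie below it. The experiments were not tested against each other.

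Epac2 KD, which lowered the cAMP-activated exchange factor, raised Hamp2. Control libraries spanned 4.78 to 52.1 CPM (median 25.8) and Epac2 KD libraries 5.69 to 296 CPM (median 112). Of the Epac2 KD libraries, 9 of 10 lay above the Control median, and the groups overlapped through replicate 3 at 40.4 CPM and replicate 7, the lowest. The change was 2.19 ± 0.43 (adjusted p = 0.000522, edgeR), between 1.95 and 2.35 in the 50 fits that each left out 1 library. It was the only one of the 10 genes called there, where 4.56% of all tested genes were called, and the median of the 10 was 0.09, against 0.02 over all tested genes. Hamp2 made up a median of 38.7% of the summed hepcidin counts, against 15.4% in Control. With both genes summed the change was 0.89 ± 0.27 (adjusted p = 0.0472).

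The other knockdowns left Hamp2 within reach of Control, at 0.53 ± 0.41 with Gcgr KD, 0.70 ± 0.41 with PKA KD and -0.75 ± 0.42 with Gnas KD, none called (adjusted p = 0.490, 0.202 and 0.235, edgeR). Set against Gcgr KD, Hamp2 was higher with Epac2 KD by 1.67 ± 0.42 (adjusted p = 0.00288, edgeR). With Gnas KD it stood at -1.28 ± 0.42 against Gcgr KD (adjusted p = 0.0595). In that comparison 0 of the 10 genes were called by edgeR and 1 by DESeq2, where 5.84% of all genes were called, and 3 of the 10 had an unadjusted p under 0.05.

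**Figure D3:**
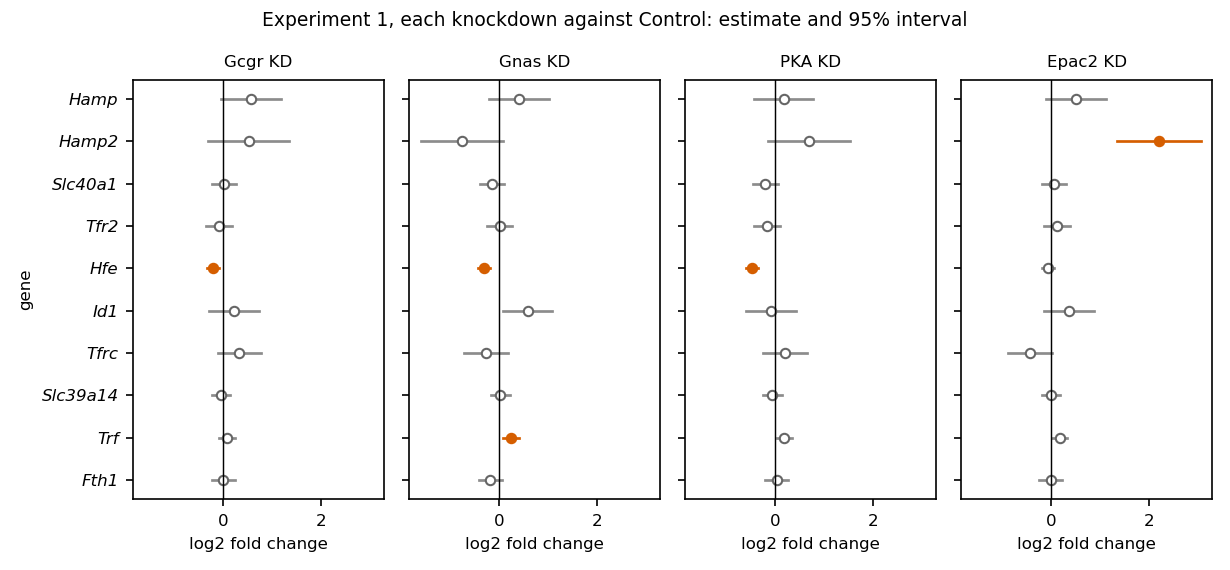
Log2 fold changes of the 10 genes (points) with 95% intervals (bars) for each knockdown of experiment 1 against the same Control libraries, filled where the adjusted p was under 0.05. Hamp2 lies at 2.19 with Epac2 KD, and Hfe lies below 0 with Gcgr KD, Gnas KD and PKA KD.

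Hfe, which encodes an MHC class I-like protein that takes part in iron sensing and is mutated in hereditary haemochromatosis, fell with knockdown of Gcgr, of Gnas and of PKA. Its levels spanned 31.6 to 41.4 CPM (median 37.4) in Control, 27.5 to 36.9 CPM (median 32.2) with Gcgr KD and 26.2 to 34.3 CPM (median 29.2) with Gnas KD. With PKA KD they spanned 21.3 to 30.8 CPM (median 26.4), below every Control library, and with Epac2 KD 31.6 to 38.3 CPM (median 35.1). Only PKA KD did not overlap Control. The log2 changes were -0.20 ± 0.060 with Gcgr KD (adjusted p = 0.0320), -0.30 ± 0.060 with Gnas KD (adjusted p = 0.000345), -0.47 ± 0.060 with PKA KD (adjusted p = 1.07e-08) and -0.07 ± 0.060 with Epac2 KD (adjusted p = 0.663), from edgeR. These comparisons share their Control libraries. Set against Gcgr KD, Hfe was lower with PKA KD by a log2 change of -0.27 ± 0.060 (adjusted p = 0.000332), the only one of the 10 genes called where 31.7% of all genes were. The call with Gcgr KD was lost in 8 of 50 fits that each left out 1 library (adjusted p from 0.0173 to 0.0720) and without the low-count filter (adjusted p = 0.0518).

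Of the 10 genes, Hfe was the 1 called with Gcgr KD, where 7.23% of all tested genes were called, and the 1 called with PKA KD, where 32.4% were. With Gnas KD, Hfe and Trf were called, where 15.2% of all genes were. The median log2 change of the 10 genes was 0.06 with Gcgr KD and -0.06 with Gnas KD, against 0.01 over all tested genes in both.

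Hfe also fell with Gcgr mAb in experiment 2, but not once Prkar1a was lowered. It spanned 33.1 to 45.1 CPM (median 40.1) in the controls, 28.8 to 36.3 CPM (median 31.9) with Gcgr mAb, 34.0 to 44.9 CPM (median 37.4) with Prkar1a KD and 34.5 to 44.3 CPM (median 41.5) with both. The Gcgr mAb libraries lay lowest, with 10 of 10 below the control median. The change with Gcgr mAb was -0.33 ± 0.058 (adjusted p = 0.000145), and Prkar1a KD under Gcgr mAb gave 0.35 ± 0.058 (adjusted p = 2.85e-06). Gcgr mAb in Prkar1a KD gave 0.09 ± 0.058 (adjusted p = 0.863), and the interaction was 0.42 ± 0.082 (adjusted p = 0.00177, edgeR), called in all 40 fits that each left out 1 library.

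Tfr2, the hepatocyte sensor of iron-loaded transferrin, was called in no comparison. Its group medians ran from 252 to 314 CPM in experiment 1 and from 203 to 219 CPM in experiment 2, and all groups overlapped their controls. The largest of its changes from a control group was -0.16 ± 0.13, with PKA KD (adjusted p = 0.369, edgeR).

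Id1, an inhibitor of DNA binding that BMP signalling induces in liver, had few counts. It spanned 1.88 to 6.08 CPM (median 3.22) in the controls of experiment 2 and 3.13 to 25.1 CPM (median 6.10) with Gcgr mAb. With Prkar1a KD it spanned 2.76 to 12.7 CPM (median 4.77), and with both 2.41 to 13.9 CPM (median 2.76). All groups overlapped. With Gcgr mAb the change was 0.99 ± 0.36 (adjusted p = 0.0812, edgeR), and it was 0.66 ± 0.33 (adjusted p = 0.249) without the libraries that stood apart. The highest library, Control AAV + Gcgr mAb 2 at 25.1 CPM, also had the highest Hamp of its group, 805 CPM. Of the 7 other SMAD target genes tested, 1 rose and 0 fell with Prkar1a KD, a smaller share than the 56.2% of all genes called. The 1 was Id3, at 1.25 ± 0.23 (adjusted p = 1.48e-05, edgeR). The median log2 change of these 7 was 0.46 with Gcgr mAb and 0.13 with Prkar1a KD, against 0.01 and 0.02 over all genes.

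Upstream of SMAD, Prkar1a KD moved genes that act on BMP signals in opposite directions. Of 19 tested genes of the list, 7 rose and 5 fell, a share near the 56.2% of all genes called, with a median of 0.19. Bmp6, the BMP of sinusoidal endothelium that carries the iron signal, rose by 1.19 ± 0.22 (adjusted p = 1.7e-05). Its counts were few, with a median of 26.5 and a highest of 76 over the 40 libraries of experiment 2. Tmprss6, a protease that dampens hepcidin, fell by 0.41 (SE 0.067, adjusted p = 2.22e-06). Fst, the gene of follistatin, which binds activins and some BMPs, rose by 4.25 ± 0.26 (adjusted p = 1.73e-16), and Bmp4 fell by 0.95 (SE 0.19, adjusted p = 4.4e-05). Of 12 sinusoidal endothelial markers, a list that also holds Bmp6, 1 rose and 2 fell, and the sum of the list had a median of 185 CPM (100 to 248) against 209 CPM (129 to 281). With Gcgr mAb alone, where 8.19% of all genes were called, 1 of the 19 BMP and SMAD genes was called. It was Smad9, at 2.14 ± 0.37 (adjusted p = 0.00015).

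Of 8 tested genes of the interleukin 6 and STAT3 path, 3 rose and 0 fell with Prkar1a KD, with a median of 0.43. Of all genes, 56.2% were called there and 29.3% rose. The 3 included Stat3, the factor that binds the STAT site, at 0.85 ± 0.097 (adjusted p = 9.83e-10, edgeR). The kinase gene Jak1 was at 0.71 ± 0.071 (adjusted p = 3.93e-11, edgeR). The acute phase proteins, which that path controls in liver, moved in both directions: 8 rose and 13 fell of 25, where 56.2% of all genes were called, with a median of -0.25. Orm3, of the orosomucoids, changed by -8.43 ± 0.66 (adjusted p = 1.16e-13) and C3, complement component 3, by 0.84 ± 0.10 (adjusted p = 3.2e-09). In experiment 1 the sum of these 25 genes reached 81907 CPM in Epac2 KD and 66195 CPM in Gnas KD. It was at most 32260 CPM in Control, 40403 CPM in Gcgr KD and 34724 CPM in PKA KD. The medians of Epac2 KD, Gnas KD and Control were 29333, 32726 and 27970 CPM. Its part in the Hamp values of experiment 1 was not tested. Among 10 transcription regulators of Hamp, 4 rose and 2 fell with Prkar1a KD, near the 56.2% of all genes. They included Ppargc1a, a coactivator of the fasting response, at 1.76 ± 0.17 (adjusted p = 1.36e-11) and Hnf4a, a hepatocyte transcription factor, at 0.77 ± 0.066 (adjusted p = 6.4e-13).

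For iron uptake, Slc39a14, which encodes the importer ZIP14 for iron not bound to transferrin, rose with Prkar1a KD. It spanned 88.5 to 187 CPM (median 145) in the controls and 155 to 226 CPM (median 183) with Prkar1a KD. The groups overlapped, and 10 of 10 libraries lay above the control median. The change was 0.36 ± 0.098 (adjusted p = 0.00172, edgeR), and with both treatments 0.35 ± 0.098 (adjusted p = 0.00250). Prkar1a KD under Gcgr mAb gave 0.24 ± 0.098 (adjusted p = 0.0355), a call lost in 9 of 40 fits that each left out 1 library. Its medians in experiment 1 ran from 147 to 162 CPM, and it was called in no comparison there.

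Tfrc, transferrin receptor 1, whose mRNA is stabilised in iron-poor cells, was low and varied between libraries. In experiment 1 it spanned 5.46 to 13.5 CPM (median 8.78) in Control, 6.59 to 17.1 CPM (median 12.1) with Gcgr KD and 4.16 to 8.72 CPM (median 6.77) with Epac2 KD. The groups overlapped, and 10 of 10 Epac2 KD libraries lay below the Gcgr KD median. It was not called against Control, but Epac2 KD was lower than Gcgr KD by a log2 change of -0.77 ± 0.22 (adjusted p = 0.0100, edgeR), 1 of 2 genes called where 20.8% of all genes were. In experiment 2 Tfrc was higher with Prkar1a KD under Gcgr mAb, by 0.53 ± 0.18 (adjusted p = 0.0124), and that fell to 0.38 (adjusted p = 0.0522) without Prkar1a KD + Gcgr mAb 8, the library with the highest value at 58.9 CPM. Tfrc is also an erythroid gene. The erythroid sum, over 9 genes of the list in the table, spanned 49.9 to 459 CPM with Prkar1a KD and 415 to 1153 CPM in the controls. Of these 9 genes only 4 passed the filter, and 4 of 4 fell, among them Hba-a1 at -2.43 ± 0.39 (adjusted p = 1.48e-06). Of all tested genes 56.2% were called there and 26.9% fell. Of the list, Epb42 was at 0 in 30 of the 40 libraries and Slc4a1 in 11. Tfrc itself was at -0.12 ± 0.18 with Prkar1a KD and Control mAb (adjusted p = 0.581, edgeR). In the comparison under Gcgr mAb, where Tfrc was called higher, the erythroid sum was lower. Its median was 271 CPM (22.1 to 402) with both treatments against 542 CPM (368 to 988) with Gcgr mAb. The part of blood cells in the values of Tfrc was not tested.

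Trf, the plasma iron carrier transferrin, and Fth1, the ferritin heavy chain that stores iron, fell with Prkar1a KD. Trf spanned 11028 to 14797 CPM (median 12644) in the controls and 9074 to 11785 CPM (median 9788) with Prkar1a KD. Fth1 spanned 984 to 2246 CPM (median 1598) in the controls, 944 to 1432 CPM (median 1266) with Gcgr mAb and 978 to 1436 CPM (median 1032) with Prkar1a KD. All these groups overlapped, with 10 of 10 Prkar1a KD libraries below the control median for both genes. The changes were -0.37 ± 0.081 for Trf (adjusted p = 0.000162) and -0.53 ± 0.11 for Fth1 (adjusted p = 6.53e-05, edgeR). With Gcgr mAb alone Fth1 changed by -0.38 ± 0.11 (adjusted p = 0.0204), which was -0.31 (adjusted p = 0.0545) without Control AAV + Control mAb 10 and -0.33 (adjusted p = 0.0592) without Control AAV + Control mAb 2. With Gcgr mAb alone Trf was at -0.12 ± 0.081 (adjusted p = 0.361), but it was called at -0.22 (adjusted p = 0.0191) without Control AAV + Gcgr mAb 2 and at -0.20 (adjusted p = 0.0264) without the libraries that stood apart. Prkar1a KD under Gcgr mAb gave -0.21 ± 0.081 for Trf (adjusted p = 0.0297), and -0.12 (adjusted p = 0.0946) without Control AAV + Gcgr mAb 2, the library with the highest Trf of its group. In the annotation, an exon of Trf shares 185 bases with Gm20425 on the same strand.

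In experiment 1 Trf rose with Gnas KD, from 12897 to 16647 CPM (median 14911) in Control to 15596 to 21455 CPM (median 17467), overlapping ranges. The change was 0.25 ± 0.078 (adjusted p = 0.0199, edgeR), and with PKA KD it was 0.19 ± 0.078 (adjusted p = 0.0521).

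**Figure D4:**
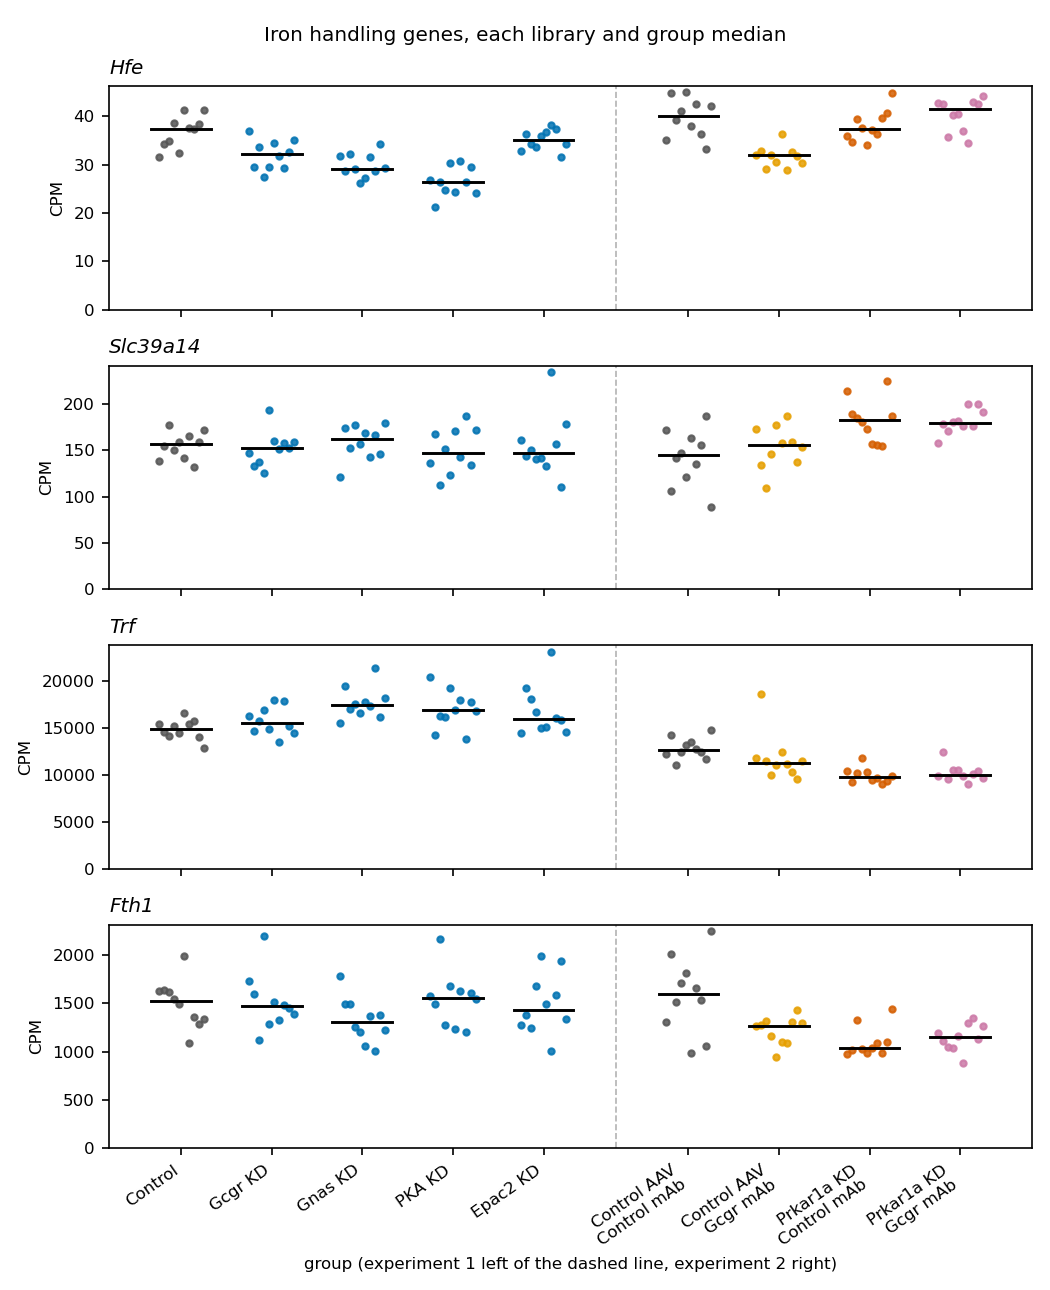
CPM of Hfe, Slc39a14, Trf and Fth1 in each of 90 libraries, by group, on axes that start at 0, with a line at the group median. The PKA KD libraries of Hfe, at most 30.8 CPM, lie below every Control library, at least 31.6 CPM, and the Prkar1a KD medians of Trf and Fth1 lie below those of their controls.

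Slc40a1, the exporter that hepcidin acts on, changed less than the hormone. It spanned 80.1 to 149 CPM (median 107) in the controls of experiment 2, 88.4 to 178 CPM (median 116) with Gcgr mAb, 71.1 to 146 CPM (median 96.8) with Prkar1a KD and 75.1 to 136 CPM (median 83.5) with both. All groups overlapped. It was called with both treatments against neither, at -0.31 ± 0.13 (adjusted p = 0.0374, edgeR), a call lost in 10 of 40 fits that each left out 1 library (adjusted p from 0.00503 to 0.0885). Prkar1a KD under Gcgr mAb gave -0.35 ± 0.13 (adjusted p = 0.0184), which was -0.27 (adjusted p = 0.0528) without Control AAV + Gcgr mAb 2. Macrophages carry much of liver ferroportin. Of 12 Kupffer cell and macrophage markers, none of which was at 0 in any library of experiment 2, 0 rose and 9 fell in that last comparison, with sums of 135 to 355 CPM against 173 to 690 CPM. Of 12 sinusoidal endothelial markers 1 rose and 9 fell. Of all tested genes, 53.1% were called in that comparison and 26.6% fell. The macrophage sum had a median of 200 CPM with both treatments, 262 CPM with Gcgr mAb and 189 CPM (161 to 343) in the controls. It was thus not lower with both treatments against neither, where Slc40a1 was also called. For the endothelial sum these medians were 153, 250 and 209 CPM. The part of these cells in the changes of Slc40a1 was not tested. The transcript says nothing of ferroportin protein, which hepcidin acts on.

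Among 21 other tested genes of iron uptake, storage and export, 6 rose and 5 fell with Prkar1a KD, near the 56.2% of all genes, with a median of -0.02. The calls included Slc25a37, the mitochondrial iron importer of erythroid cells, at -0.84 ± 0.085 (adjusted p = 6.26e-11), and Cp, ceruloplasmin, the ferroxidase of plasma, at -0.61 ± 0.081 (adjusted p = 3.31e-08). Hpx, the haem scavenger hemopexin, rose by 0.91 ± 0.13 (adjusted p = 1.04e-07). With Gcgr mAb, 1 rose and 1 fell, near the 8.19% of all genes called. They were Cp at 0.40 ± 0.081 (adjusted p = 0.000869) and Ftl1, the ferritin light chain, at -0.51 ± 0.10 (adjusted p = 0.000864). Cp therefore had changes of opposite sign with the 2 treatments, and its interaction was -0.50 ± 0.11 (adjusted p = 0.00794). Of the 8 haem synthesis genes, 0 rose and 4 fell with Prkar1a KD, where 56.2% of all genes were called and 26.9% fell. Among the 4 was Alad, which joins the first precursors of the ring, at -0.53 ± 0.080 (adjusted p = 4.28e-07, edgeR).

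In experiment 1, with PKA KD, 3 rose and 4 fell of the 21 iron genes, near the 32.4% of all genes called, with Slc48a1, a haem transporter, at 0.59 ± 0.078 (adjusted p = 2.46e-08) and Slc11a2, the ferrous iron importer DMT1, at -0.39 ± 0.083 (adjusted p = 0.000185). With Gnas KD, where 15.2% of all genes were called, 4 rose and 2 fell, among them Cp at 0.51 ± 0.092 (adjusted p = 7.8e-05), and with Gcgr KD and Epac2 KD, where 7.23% and 4.56% of all genes were called, 1 fell each, Pcbp2, an iron chaperone, at -0.17 ± 0.056 (adjusted p = 0.0463) and Slc39a8, the importer ZIP8, at -0.51 ± 0.077 (adjusted p = 6.28e-06). Hjv, hemojuvelin, the BMP co-receptor of hepatocytes, rose with Epac2 KD by 0.40 ± 0.086 (adjusted p = 0.00208, edgeR), where 4.56% of all genes were called. With PKA KD it rose by 0.48 ± 0.086 (adjusted p = 1.19e-05, edgeR), where 32.4% were called. It is 1 of 19 tested BMP and SMAD genes, and the rest of that list is not described for experiment 1.

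Libraries of 1 group that were high in Hamp tended in experiment 2 to be high in Id1 and low in Tfrc. After removal of group means, Pearson's r with Hamp over 40 libraries was 0.65 for Id1 (permutation p = 1e-05, the smallest that 100000 permutations can give, adjusted p = 0.00018) and -0.60 for Tfrc (permutation p = 0.00032, adjusted p = 0.00288), of 18 relations tested over both experiments. Spearman's rho was 0.63 for Id1 (permutation, adjusted p = 0.0009) and -0.59 for Tfrc (permutation, adjusted p = 0.00306). Without the 2 libraries farthest from the median of Hamp, r was 0.66 and -0.52. Within the 4 groups r for Id1 ran from 0.47 to 0.80, and for Tfrc it was -0.61, -0.56 and -0.77 in 3 groups and 0.14 in Prkar1a KD + Control mAb. In experiment 1, over 50 libraries, r was 0.25 for Id1 (permutation p = 0.0921, adjusted p = 0.237), which was 0.05 without the 2 farthest libraries, and -0.30 for Tfrc (permutation p = 0.0268, adjusted p = 0.161), with rho at 0.13 and -0.35 (permutation, adjusted p = 0.555 and 0.0966). The difference between the experiments was not tested. Between Hamp and Hamp2 r was 0.15 in experiment 1 (rho 0.20, permutation, adjusted p = 0.514 and 0.498) and 0.01 in experiment 2 (rho 0.02, permutation, adjusted p = 0.941 and 0.943).

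**Figure D5:**
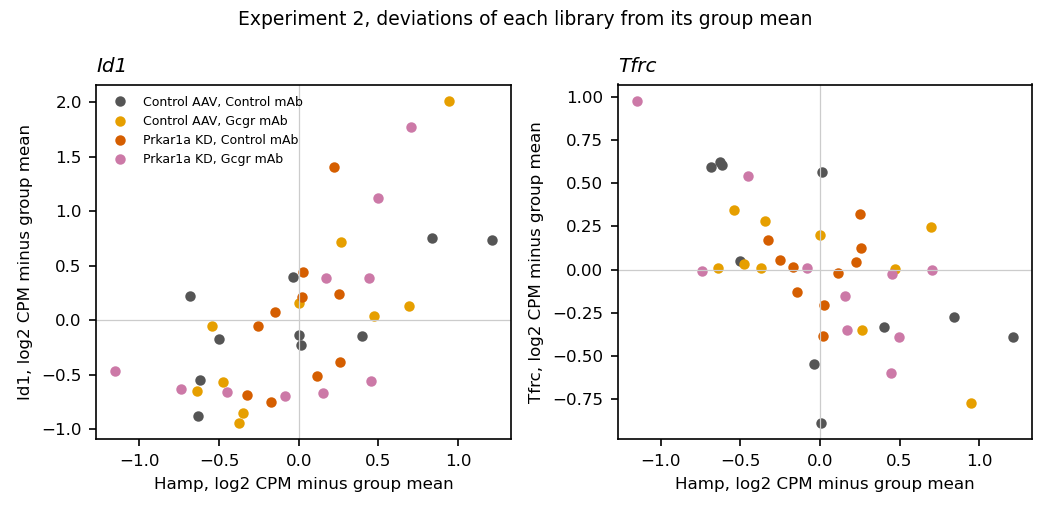
Deviation of each of the 40 libraries of experiment 2 from its group mean (log2 CPM), for Id1 (left) and Tfrc (right) against Hamp, coloured by group. Id1 runs upward with Hamp (r = 0.65) and Tfrc downward (r = -0.60).

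The genes with the pattern most like Hamp, by the lower of its 2 Pearson correlations over the 50 and the 40 libraries among 12718 genes, were Ewsr1 (0.58 and 0.64), Igf1 (0.56 and 0.56), Rbm8a (0.55 and 0.60), Thpo (0.55 and 0.61) and Phf21a (0.55 and 0.75). With group means removed, r was between 0.56 and 0.63 for these genes in experiment 1, but in experiment 2 it was 0.07 for Igf1, 0.23 for Ewsr1 and between 0.40 and 0.46 for the others. These values describe libraries that share treatments, depth and RNA quality.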

How the data were processed

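The authors deposited expected counts per Entrez gene, 1 table per experiment, of which 8.54% and 8.41% of entries had a fractional part. Per the submitters' processing notes, bcl2fastq 2.17, FastQC and GRCm38/mm10 were used, and per the labels' protocols the polyA libraries kept strand. The sources used here do not give the aligner or the counter. Symbols for 24375 of 24475 identifiers came from RefSeq. Counts were rounded, scaled by TMM and tested in edgeR 4.0.16 (R 4.3.3, quasi-likelihood, all groups of an experiment in 1 fit), over 13574 and 12847 genes that passed filterByExpr. A gene was called at a Benjamini-Hochberg adjusted p under 0.05 over all tested genes. Relations within groups used 100000 permutations. The fit was also run on simulated counts with the same spread for every gene and few changed genes. That setting differs from Prkar1a KD, where 56.2% of tested genes were called, so it does not cover that comparison. Alternatives were DESeq2 1.42.0, RLE scaling, no filter, a replicate block, only the groups compared, and Hamp and Hamp2 summed. Leaving out each library in turn, or those that stood apart, was added after seeing the data; correlations without the 2 farthest libraries were planned. The 10 genes and the lists were chosen with earlier results of these data known. All 10 genes are named. From other lists, genes were named only among those called with the smallest adjusted p, up to 2 in each direction, and not every list or call is described.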

Additional observations from a re-analysis of the deposited data

Results flagged for a closer look

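Of 90 sets of 10 libraries (a gene in a group), 10 had a highest or lowest library whose gap to the next passed Dixon's 95% critical value, and chance gives this in about 5% of sets. Hamp in Epac2 KD replicate 2 stood at 788 CPM, above the next library at 261 CPM. In Epac2 KD replicate 7, Hamp2 was the lowest at 5.69 CPM, under the next at 40.4 CPM, and Tfr2 was the highest at 545 CPM, over 342 CPM.

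Slc40a1 was low in Control replicate 3, at 38.4 CPM under 46.4 CPM. It was high in Control AAV + Gcgr mAb replicate 2, at 178 CPM over 124 CPM, and in Prkar1a KD + Gcgr mAb replicate 7, at 136 CPM over 99.0 CPM. Tfr2 in Prkar1a KD + Control mAb replicate 1 was at 254 CPM over 224 CPM. Trf was high in Control AAV + Gcgr mAb replicate 2, at 18610 CPM over 12424 CPM, in Prkar1a KD + Control mAb replicate 4, at 11785 CPM over 10433 CPM, and in Prkar1a KD + Gcgr mAb replicate 2, at 12472 CPM over 10567 CPM.

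By the interaction term in edgeR, the effect of Gcgr mAb on Hfe differed between Control AAV and Prkar1a KD, at 0.42, called in all 40 fits that each left out 1 library. For Hamp the term was -1.14 (adjusted p = 0.0406). That call was lost in 19 of 40 such fits, without the low-count filter (adjusted p = 0.0652) and with Hamp and Hamp2 summed (adjusted p = 0.0835).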

How the results depend on the processing

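No called change of the 10 genes turned direction under any alternative that was run. RLE scaling kept 130 of 130 calls and non-calls. Without the low-count filter, 0 of the 10 genes were called with Gcgr KD (Hfe at -0.19, adjusted p = 0.0518). In the interaction 1 was called, Hfe, while Hamp was lost (-1.14, adjusted p = 0.0652). Also lost were Hamp2 with Gcgr mAb (adjusted p = 0.0728) and Slc40a1 with both treatments against neither (adjusted p = 0.0566). Trf with Prkar1a KD under Gcgr mAb was lost too (adjusted p = 0.0520, all from edgeR). With PKA KD, 2 were called by DESeq2 and 2 with only the groups compared, Trf being added, and for Gnas KD against Gcgr KD it was 1 in both, Hamp2. With Hamp and Hamp2 summed, 1 was called for Epac2 KD against Gcgr KD and 1 in the interaction. The within-group correlation of Hamp with Id1 in experiment 1 was 0.0492, and with Slc39a14 in experiment 2 -0.243, without the 2 libraries farthest from the median of Hamp. With only the groups compared, Gcgr mAb called 608 genes rather than 1052, and Fth1 was lost (adjusted p = 0.0982). DESeq2 added Id1 with Gcgr mAb (adjusted p = 0.0415) and Hamp2 in the interaction (adjusted p = 0.0358).

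Leaving out 1 library at a time, the 10 genes gave 0 to 1 calls with Gcgr KD, 2 to 2 with Gnas KD, 1 to 2 with PKA KD and 1 to 1 with Epac2 KD. Against Gcgr KD they gave 0 to 2 with Gnas KD, 1 to 1 with PKA KD and 2 to 2 with Epac2 KD. They gave 2 to 4 with Gcgr mAb, 5 to 6 with Prkar1a KD, 5 to 6 with both against neither, 4 to 7 with Prkar1a KD under Gcgr mAb, 0 to 0 with Gcgr mAb in Prkar1a KD and 1 to 4 in the interaction. Same-numbered samples had a median correlation of 0.0448 in experiment 1 and -0.00487 in experiment 2, so the numbers were not taken to pair the samples. A replicate block changed 1 of 130 calls, that of Hamp2 with Gcgr mAb (-1.06, adjusted p = 0.0555). Id1 and Tfrc had few counts, which limits what could be detected for them.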
